A study of Mus musculus with 3 samples.

Results

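The replication-dependent histone genes supply the bulk of the histones that package newly copied DNA. Here they were taken as every gene whose symbol begins with Hist1h, Hist2h, Hist3h or Hist4h and that has at least 1 protein-coding transcript, which gave 67 of 55536 genes in the tables and 67 of 22028 protein-coding genes. A further 3 symbols of the same form, Hist1h2aj, Hist1h2al and Hist3h2bb-ps, had no protein-coding transcript and were left out. By type, 6 members encode the linker histone H1, 18 encode H2A, 18 encode H2B, 12 encode H3 and 13 encode H4, and by cluster 54 lie in Hist1 on chromosome 13, 10 in Hist2 on chromosome 3, 2 in Hist3 on chromosome 11 and 1 in Hist4 on chromosome 6. The RNA came from mouse C57BL/6J macrophages, labelled BMDM, the usual short name for macrophages grown from bone marrow, which had been given Lipid A, a bacterial endotoxin component, at 100 ng/ml for 20 min. Total RNA of the cytosolic fraction was depleted of ribosomal RNA and sequenced without poly(A) selection being stated, in 3 libraries labelled biological replicates 1, 2 and 3. All 3 carry the same donor identifier, and sex and age were not collected. Every library had the same treatment, time and fraction, so the data hold no contrast between conditions, and all values below are levels and their spread over 3 libraries, with no test.

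Histone mRNAs of this class are made mainly in S phase and mostly end without a poly(A) tail. Their 3′ end is cut after a short stem-loop, which the stem-loop binding protein Slbp holds through processing, translation and decay, and the U7 small nuclear RNP and the cleavage factors Cpsf2, Cpsf3 and Sympk take part in the cut. Some members also carry a poly(A) signal farther downstream and can be made as polyadenylated mRNA, a form known from cells that have stopped dividing. Bone marrow-derived macrophages divide under growth factor and slow down as they mature, whereas replacement histones such as those of H3f3a, H3f3b and H2afz are made throughout the cell cycle from ordinary polyadenylated mRNAs. RNA depleted of ribosomal RNA can hold both forms of histone mRNA.

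The stem-loop was searched in the GENCODE M21 transcripts as a perfect stem of 6 base pairs that starts with GG and ends with CC around a loop of 4 bases starting with T, within 300 bases after the stop codon. It was found in 46 members and in 97 of 20983 protein-coding genes whose models reach past the stop (0.462%). The sequences are shown because this element marks the class, and because 8 forms covered all 46 matches. Capitals mark the 16 bases of the stem-loop and lower case the 5 bases on each side, given 5′ to 3′ on the transcript's strand for the highest members of H1, H2A and H4, the highest H2B member with a match, and an H4 member of another form.
Hist1h1c: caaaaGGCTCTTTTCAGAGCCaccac
Hist2h2aa2: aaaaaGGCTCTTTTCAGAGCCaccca
Hist1h2bg: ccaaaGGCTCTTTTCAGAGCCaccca
Hist1h4h: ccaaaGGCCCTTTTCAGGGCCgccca
Hist1h4i: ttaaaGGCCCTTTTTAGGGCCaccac
The form of Hist1h1c was shared by 26 members of H1, H2A, H2B and H3, and the form of Hist1h4h by 7 members, all of them H4. Of the members without a match, 15 have models that stop at the coding sequence, so no 3′ sequence could be searched, and 6 have 3′ sequence without these letters (Hist1h1a, Hist1h2bc, Hist1h2bq, Hist1h2br, Hist2h2be and Hist2h3b). Absence there says only that this pattern was not in the annotated window.

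Expression was read as TPM, a level per transcript length that is set to the same total in each library. Gene-level expected counts totalled 27282444, 81509889 and 37131774 in replicates 1, 2 and 3, and 3 counts, taken as the detection floor, correspond to 0.110, 0.0368 and 0.0808 CPM, counts scaled to the library total. These floors cover counting error only. Nuclear-encoded protein-coding genes took 25.0%, 22.0% and 19.6% of TPM, so levels were also rescaled to the same total over those genes in each library ("rescaled TPM"). All 8 macrophage markers were detected (Lyz2, a lysozyme, at 5750.80, 4138.19 and 3848.64 TPM), whereas the T and NK cell, B cell, erythroid and fibroblast markers stayed below 1 TPM in every library.

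Most replication-dependent histone genes were detected. A level of at least 1 TPM in all 3 libraries was reached by 52 of 67 members, where the background over all protein-coding genes was 40.5%. On rescaled TPM it was 61 members, with a background of 47.4%. Below 1 TPM in every library were 8 members, and 7 lay above in some libraries only. The members together summed to 474.35, 743.70 and 661.56 TPM (627 ± 138, SD, n = 3), and held 0.0495%, 0.0724% and 0.0667% of expected counts (0.0629% ± 0.0119). The median member had a mean of 5.76 TPM. Among the 57 members averaging at least 1 TPM the median was 6.62 TPM, and it was 6.66 TPM for all 9165 protein-coding genes at that level.

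**Figure D1:**
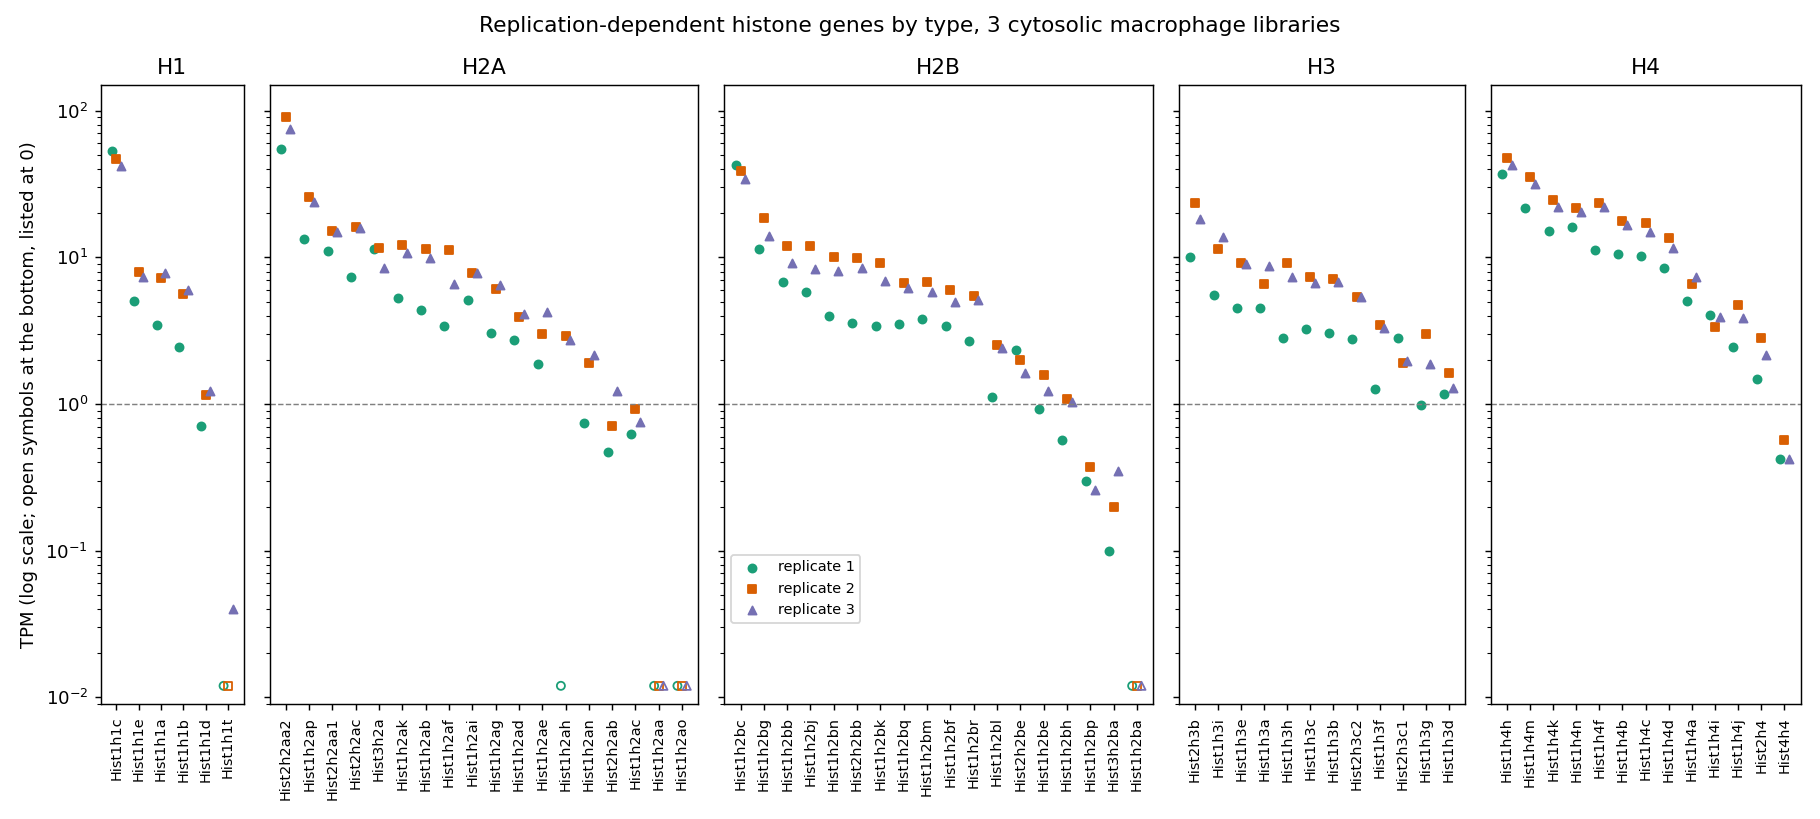
TPM of each of the 67 members (log scale) in replicates 1, 2 and 3, ordered by mean within each histone type; the dashed line marks 1 TPM and open symbols at the bottom stand for values listed at 0. Replicate 1 (circles) lies below the other libraries for most genes, but not for Hist1h1c, at 53.41 TPM, or Hist1h2bc, at 42.97 TPM.

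The level was spread over many genes with a few leading. The 4 highest members by TPM, Hist2h2aa2, Hist1h1c, Hist1h4h and Hist1h2bc, held 32.3% of the members' summed TPM, and the 10 highest held 52.6%. By mean expected counts, in which the deepest library weighs most, Hist1h1c and Hist1h2bc alone held 29.9%. Per library, the other 65 members held 58.5%, 72.0% and 72.0% of the members' counts in replicates 1, 2 and 3. The order depends on the annotated length: Hist1h1d, with a model of 7425 bases, was ninth by counts (260, 1368 and 698 expected counts) but only 57th by TPM (0.71, 1.15 and 1.23 TPM).

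H1 linker histones, which bind the DNA entering and leaving the nucleosome, were dominated by 1 gene. Hist1h1c (chr13:23738808-23740367, plus strand, M21 on mm10, 1 exon) had 53.41, 47.10 and 41.81 TPM in replicates 1, 2 and 3. Hist1h1e came next with 5.04, 7.93 and 7.31 TPM, so the libraries of the leading gene lay well above all libraries of the next. Hist1h1a had 3.46, 7.28 and 7.83 TPM and Hist1h1b 2.44, 5.62 and 5.96 TPM. The testis-specific Hist1h1t was listed at 0, 0 and 0.04 TPM, at or under the floor of 3 counts in each library. Hist1h1e overlaps Hist1h2be on the same strand, so reads in the overlap could be assigned to either. As a share of the members' summed TPM, H1 made up 10.9% ± 2.45 (SD, n = 3), highest in replicate 1 (13.7%, 9.29% and 9.70%).

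H2A members, whose protein pairs with H2B in the nucleosome, took 28.6% ± 1.82 of the members' TPM. Hist2h2aa2 (chr3:96239749-96240276, minus strand, 1 exon) in the Hist2 cluster was the highest of all members, with 55.02, 91.24 and 74.95 TPM. Its neighbour Hist2h2aa1 has the same coding sequence and had 11.11, 15.13 and 14.92 TPM. Every stretch of 75 bases in both models also occurs in another annotated transcript, so the split between them rests on the authors' assignment of shared reads, and predicted genes lie on the opposite strand of both (the sources used here do not state how strand was used). In the Hist1 cluster Hist1h2ap led with 13.28, 25.69 and 23.74 TPM. Hist1h2ao, which has the same coding sequence, was listed at 0 in all libraries, as was Hist1h2aa, a testis form. In a second transcript table Hist1h2ao was above 0 in each library (1.07, 1.75 and 1.04 rescaled TPM) and Hist1h2aa was at 0. Hist1h2ao shares 93.1% of its 75-base windows with Hist1h2ap. The lowest H2A of the Hist2 cluster was Hist2h2ab at 0.47, 0.71 and 1.22 TPM, and the single H2A of the Hist3 cluster, Hist3h2a, had 11.39, 11.68 and 8.50 TPM. Hist3h2a overlaps Trim17 on the same strand.

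H2B members took 19.2% ± 1.28. Hist1h2bc (chr13:23684199-23692908, plus strand) had 42.97, 39.07 and 34.00 TPM, far above the next member of its cluster, Hist1h2bg, with 11.33, 18.68 and 14.01 TPM. Its annotated transcript has 2 exons, unlike most histone genes, and no stem-loop match. At the other end of the Hist1 cluster the testis form Hist1h2ba was listed at 0 in all libraries. In the Hist2 cluster Hist2h2bb had 3.60, 9.88 and 8.51 TPM, above Hist2h2be with 2.34, 2.00 and 1.62 TPM. Every stretch of 75 bases in the Hist2h2bb model also occurs in the predicted gene Gm20628 on the opposite strand. In the Hist3 cluster Hist3h2ba stayed low at 0.10, 0.20 and 0.35 TPM.

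H4 members, which with H3 form the core of the nucleosome, took 30.1% ± 0.465 of the members' TPM. Hist1h4h (chr13:23531050-23531519, plus strand, 1 exon) led with 37.28, 47.98 and 42.88 TPM. It was followed by Hist1h4m with 21.69, 35.32 and 31.64 TPM, Hist1h4k with 15.03, 24.76 and 22.24 TPM, Hist1h4n with 16.15, 21.62 and 20.56 TPM and Hist1h4f with 11.27, 23.47 and 22.12 TPM. Hist1h4m was above the other 3 in every library, while the order of those 3 changed between libraries. Hist1h4m and Hist1h4n share their coding sequence, so reads from it could be assigned to either. The lowest H4 of the Hist1 cluster was Hist1h4j with 2.45, 4.74 and 3.84 TPM. Outside that cluster Hist2h4 had 1.48, 2.82 and 2.16 TPM and Hist4h4 0.42, 0.57 and 0.42 TPM.

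H3 members took 11.3% ± 2.00, and 11 of 12 were detected. Hist2h3b was highest with 10.01, 23.44 and 18.39 TPM. As for Hist2h2bb, every stretch of 75 bases in its model also occurs in the predicted gene Gm20628 on the opposite strand. In the Hist1 cluster Hist1h3i led with 5.52, 11.44 and 13.71 TPM and Hist1h3d was lowest with 1.17, 1.64 and 1.29 TPM. The summed TPM of H3 members over that of H4 members was 0.297, 0.408 and 0.422 in the 3 libraries. This ratio leaves out the replacement H3 genes H3f3a and H3f3b, with means of 172 and 170 TPM, so it does not compare all H3 with H4. H2A over H2B was 1.30, 1.55 and 1.65. On expected counts the H3 to H4 ratio was 0.473, 0.552 and 0.590 and the H2A to H2B ratio 0.891, 1.15 and 1.16, so the direction of the second ratio in replicate 1 turned with the scale. Model lengths differ between the types, and 15 members have no annotated 3′ sequence, which bears on both scales.

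Many H2A and H2B genes lie head to head with their annotated M21 starts 175 to 305 bases apart, and 12 such pairs were found. Some of these models begin at the coding sequence, so the distance is not always between transcription starts. One is Hist1h2ak, whose RefSeq start differs by 85 bases. For 10 pairs both genes had a level above 0. On TPM the mean of the H2B gene was higher in 5 of these and that of the H2A gene in the other 5. By mean expected counts the direction turned in 2 of the 10 pairs, Hist1h2ad and Hist1h2bf (131 and 127) and Hist2h2ac and Hist2h2be (432 and 461). The widest gap was in Hist1h2ac and Hist1h2bc, where the H2B gene had a mean of 38.7 TPM and the H2A gene 0.767 TPM (0.63, 0.92 and 0.75 TPM), a ratio of 50.5. By counts the gap was smaller, with 2008, 6074 and 2514 expected counts for Hist1h2bc and 71.7, 343 and 134 for Hist1h2ac, whose model of 2482 bases is long for a histone gene. The opposite order was seen in the Hist2 cluster, where Hist2h2ac had 7.33, 16.09 and 15.78 TPM and Hist2h2be 2.34, 2.00 and 1.62 TPM, with no overlap between the genes' libraries on this scale. By counts that order turned in replicate 1 and the libraries overlapped, with 106.6, 811.7 and 376.9 expected counts for Hist2h2ac and 283, 795 and 306 for Hist2h2be. The model of Hist2h2ac has 520 bases and that of Hist2h2be 2620.

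**Figure D2:**
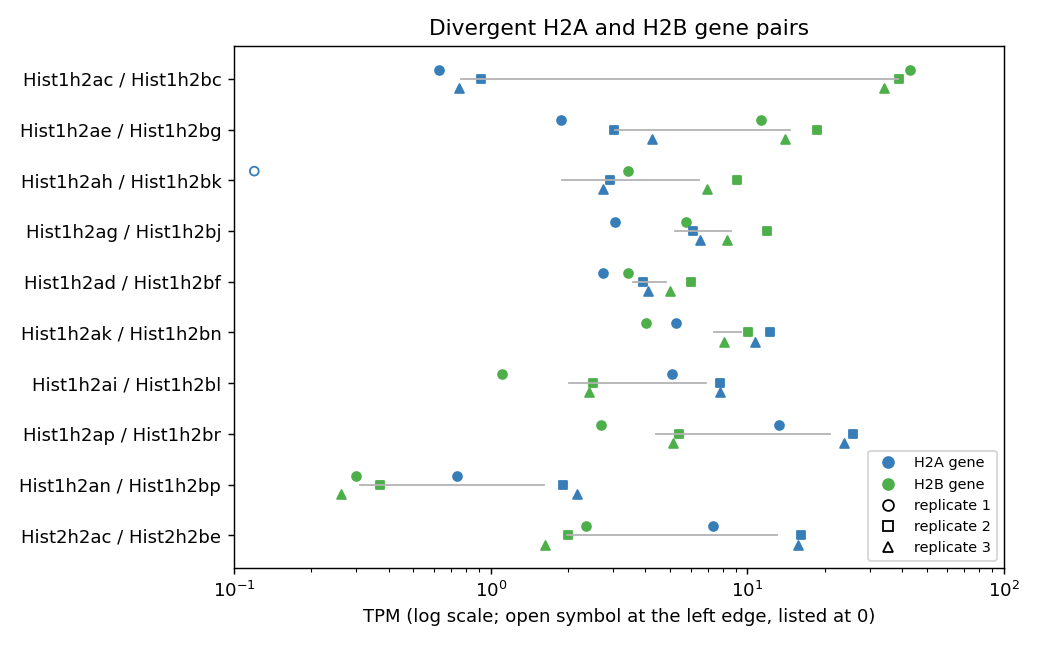
TPM (log scale) of the H2A gene (blue) and the H2B gene (green) in each of the 10 divergent pairs with a level above 0 for both, with 1 symbol per replicate and a grey line joining the means; the open symbol at the left edge is Hist1h2ah in replicate 1, listed at 0. The pairs run from Hist1h2ac and Hist1h2bc at the top, where H2B was 50.5 times H2A, to Hist2h2ac and Hist2h2be at the bottom, where it was 0.152 times H2A.

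The start regions were searched for motifs known from histone promoters. Any link between these motifs and the variation between libraries shown further on was not tested. RefSeq promoters (GRCm38.p6) were matched for 62 members, and the 250 bases before the start were searched on both strands for 4 motifs. Hist1h2bc and Hist2h2be were among the members without a matched promoter. CCAAT, the site of NF-Y, was present in 82.3% of the members' promoters, and in 33.9% of all 32851 promoters. It was in all 18 H2A, all 16 H2B and all 6 H1 promoters, 8 of 10 H3 promoters and 3 of 12 H4 promoters. TATAAA was in 46.8% of the members' promoters and in 12.4% of all. The octamer ATTTGCAT, read by Oct-1 (Pou2f1), was in 20.97% of the members' promoters and in 1.60% of all, and among members it was in 7 H2A and 6 H2B promoters and in no other type. TTTNNCGC, an E2F-type motif, was in 22.6% of the members' promoters and in 4.28% of all. No motif contains another, and the sites of different motifs may overlap. Each divergent pair shares part of its window, so the pairs' promoters are not independent. The 160 bases before the start are shown for the leading member of H1 and of H2A, for an H2B member that has 3 of the motifs, and for an H4 member. Capitals mark the CCAAT motif, in Hist2h2aa2 as its reverse complement, and the TATAAA and octamer motifs.
Hist1h1c, chr13:23738647-23738806, plus strand: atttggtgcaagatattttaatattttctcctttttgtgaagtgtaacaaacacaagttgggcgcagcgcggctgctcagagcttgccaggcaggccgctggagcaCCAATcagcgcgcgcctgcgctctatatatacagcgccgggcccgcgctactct
Hist2h2aa2, chr3:96240375-96240534, minus strand: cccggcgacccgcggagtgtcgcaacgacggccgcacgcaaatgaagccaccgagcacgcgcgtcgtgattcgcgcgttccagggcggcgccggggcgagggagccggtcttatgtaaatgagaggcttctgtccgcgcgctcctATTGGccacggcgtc
Hist1h2bg, chr13:23571240-23571399, plus strand: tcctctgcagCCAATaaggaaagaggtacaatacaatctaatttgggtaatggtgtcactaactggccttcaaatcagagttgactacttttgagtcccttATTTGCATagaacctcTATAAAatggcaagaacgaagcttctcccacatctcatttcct
Hist1h4k, chr13:21750554-21750713, minus strand: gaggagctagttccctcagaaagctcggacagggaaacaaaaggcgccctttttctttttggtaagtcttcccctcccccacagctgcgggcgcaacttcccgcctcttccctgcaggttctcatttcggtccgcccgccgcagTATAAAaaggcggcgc
The RefSeq start differs from the M21 start by 98 bases for Hist2h2aa2 and by 48 bases for Hist1h4k, and by 1 and 4 bases for Hist1h1c and Hist1h2bg. A match describes letters in the window and not a bound site.

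Between the libraries, most members averaging at least 1 TPM varied together, and they varied more than other protein-coding genes at that minimum. In replicate 1 the members were low: on rescaled TPM it was the lowest library for 52 of the 57 members averaging at least 1 TPM, where the background over protein-coding genes at that minimum was 36.5%. It was the highest library for 2 members, with a background of 30.4%. On TPM as deposited it was the lowest for 51 members, with a background of 4.05%, and the highest for 5 members (Hist1h1c, Hist1h2bc, Hist2h2be, Hist1h4i and Hist2h3c1), with a background of 81.7%. Both replicates 2 and 3 were at least 1.5 times replicate 1 on rescaled TPM, called the 1.5-fold criterion below, for 48 members, where the background was 1.00%; they include Hist1h2ah, listed at 0 in replicate 1. These members made up 48 of the 92 protein-coding genes that met the criterion. At 2 times it was 26 members and a background of 0.382%. The median member had a rescaled TPM 2.10 times that of replicate 1 in replicate 2 and 2.11 times in replicate 3, against 1.00 and 1.01 over the protein-coding genes at that minimum. Replicates 2 and 3 were close to each other.

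The spread values describe the same pattern. The median SD of log2(TPM + 1) over the 3 libraries was 0.41 for members and 0.16 for protein-coding genes, both averaging at least 1 TPM, and on rescaled TPM it was 0.61 and 0.10. The biological coefficient of variation, the spread beyond counting error estimated by edgeR from rounded expected counts, had a median of 0.277 for the 58 members kept by a filter on low counts and 0.104 for the 12430 genes kept. Without the filter the order turned, with 0.272 for 64 members and 0.291 for 22129 genes, which include those of lowest count. Replicate 1 decided the difference seen with the filter: without that library the medians were 0.150 for members and 0.113 for all genes, and the median SD of members was 0.12. Replicate 1 was also the library of lowest depth, and replicate 2 had the highest. The part of depth in the pattern was not tested.

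**Figure D3:**
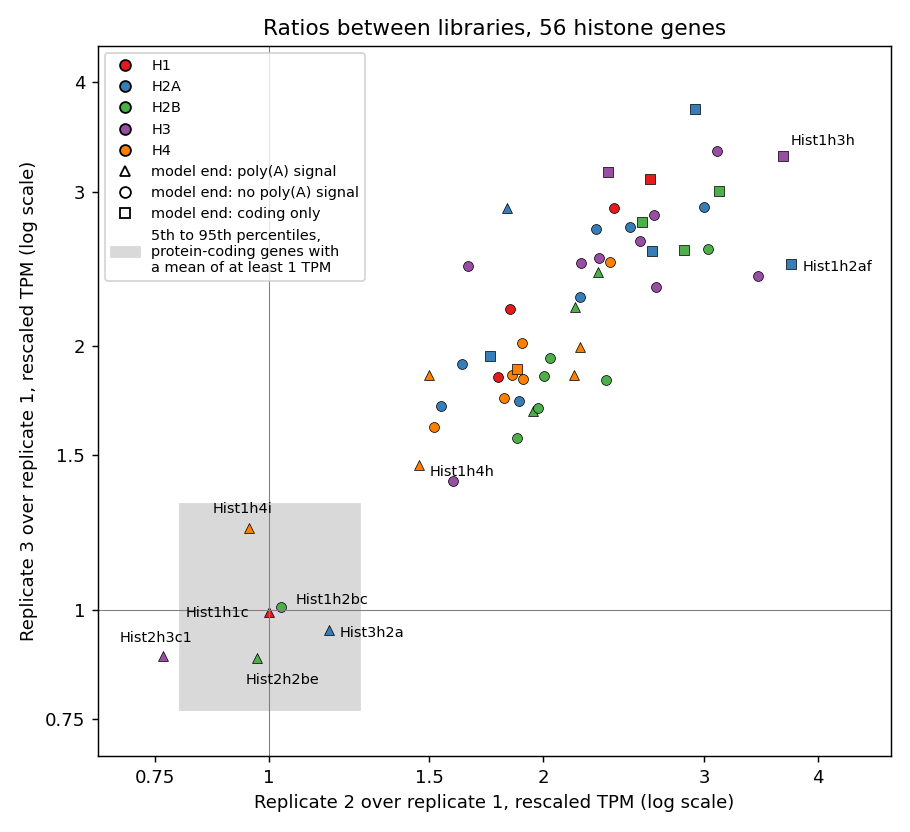
Ratio of rescaled TPM of replicate 2 (horizontal axis) and of replicate 3 (vertical axis) to replicate 1, both on log scales, for 56 members averaging at least 1 TPM with a value in replicate 1; colours give the histone type, symbols the annotated transcript end, and the grey box the 5th to 95th percentiles of the protein-coding genes averaging at least 1 TPM. The 50 members outside the box to the upper right have ratios of at least 1.46 and 1.40, and the other 6 have ratios of at most 1.16 and 1.24.

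A small set of members did not share the pattern. Of the 56 members with a value in replicate 1, 50 lay above the 95th percentile of the protein-coding genes at that minimum in both ratios (1.26 for replicate 2 and 1.32 for replicate 3). The other 6 were Hist1h1c, Hist1h2bc, Hist2h2be, Hist3h2a, Hist1h4i and Hist2h3c1. They were singled out after their values were seen. Hist1h1c had rescaled ratios of 1.00 and 0.995 and Hist1h2bc 1.03 and 1.01. Hist2h2be had 0.970 and 0.880 and Hist3h2a 1.16 and 0.948. Hist1h4i had 0.952 and 1.24. Hist2h3c1 had 0.766 and 0.885, the lowest of all members in replicate 2, but its model lies wholly within sequence shared with the predicted gene Gm20634. Hist1h1c, Hist1h2bc and Hist3h2a were among the 4 highest members by expected counts.

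Members were also read by how their longest transcript model ends. A poly(A) signal (AATAAA or ATTAAA) was found within the last 50 bases of the model in 17 members, 35 had 3′ sequence with no such signal there, and 15 had coding sequence only. Among members averaging at least 1 TPM, 6 of 13 with the signal had both ratios at 1.5 or more, as did 30 of 32 without it and 12 of 12 with coding sequence only. Of the 6 members named above, 5 have the signal and the other, Hist1h2bc, has 3′ sequence without it. Summed over members, rescaled TPM of replicates 2 and 3 was 1.28 and 1.29 times that of replicate 1 with the signal, 1.88 and 1.85 times without it, and 2.53 and 2.55 times with coding sequence only. Hist1h1c alone made up 213.9 of the 520.8 rescaled TPM summed with the signal in replicate 1. For members averaging at least 1 TPM with a value in replicate 1, the median ratios with the signal were 1.497 and 1.685. The medians were 2.02 and 2.11 without the signal, and 2.63 and 2.77 with coding sequence only. These classes describe the annotation and not the ends of the RNA in these cells, which the files do not measure. Annotated sequence shared with any other gene, member or not, on either strand, moved with the same split. Among members averaging at least 1 TPM, 28 of 29 with over 50% of their 75-base windows shared met the 1.5-fold criterion. With at most 50% shared, 20 of 28 did. The part of read sharing was not tested.

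The largest spreads belonged to H2A, H3 and H2B genes of low to middle level. Hist1h2ah had 0, 2.92 and 2.74 TPM, with 0, 92.6 and 41.04 expected counts. In the second transcript table it was above 0 in replicate 1, at a rescaled 5.71 there and 27.1 and 25.4 in the others, so its 0 belongs to 1 of the 2 quantifications. Hist1h3h had 2.84, 9.17 and 7.36 TPM (SD of log2(TPM + 1) of 0.74). Hist1h2af had 3.40, 11.20 and 6.64 TPM (0.74), Hist2h2bb 3.60, 9.88 and 8.51 TPM (0.67) and Hist1h2ab 4.35, 11.50 and 9.86 TPM (0.66). In each of the 5 the lowest library was replicate 1. The smallest spreads among members averaging at least 1 TPM were those of Hist1h4i (0.11), Hist1h3d (0.15), Hist1h2bc (0.17), Hist1h1c (0.17) and Hist2h2be (0.18). By type, the summed rescaled TPM of replicates 2 and 3 was 2.38 and 2.52 times that of replicate 1 for H3, 2.00 and 1.97 times for H2A, 1.73 and 1.77 times for H4, 1.68 and 1.55 times for H2B, and 1.21 and 1.25 times for H1. The H1 sum rests mainly on Hist1h1c: the median H1 member had ratios of 1.84 and 2.20, and 4 of 5 H1 members met the 1.5-fold criterion.

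The second transcript table gave similar levels for most members. After the same rescaling, its values were at a median of 0.956 times the first table's. Only Hist2h3c1, at 0.0975 times, and Hist1h2ah, at 2.14 times, differed by more than 2 times among members averaging at least 1 TPM. The highest member, Hist2h2aa2, was at 0.846 times and Hist1h1c at 0.937 times.

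**Figure D4:**
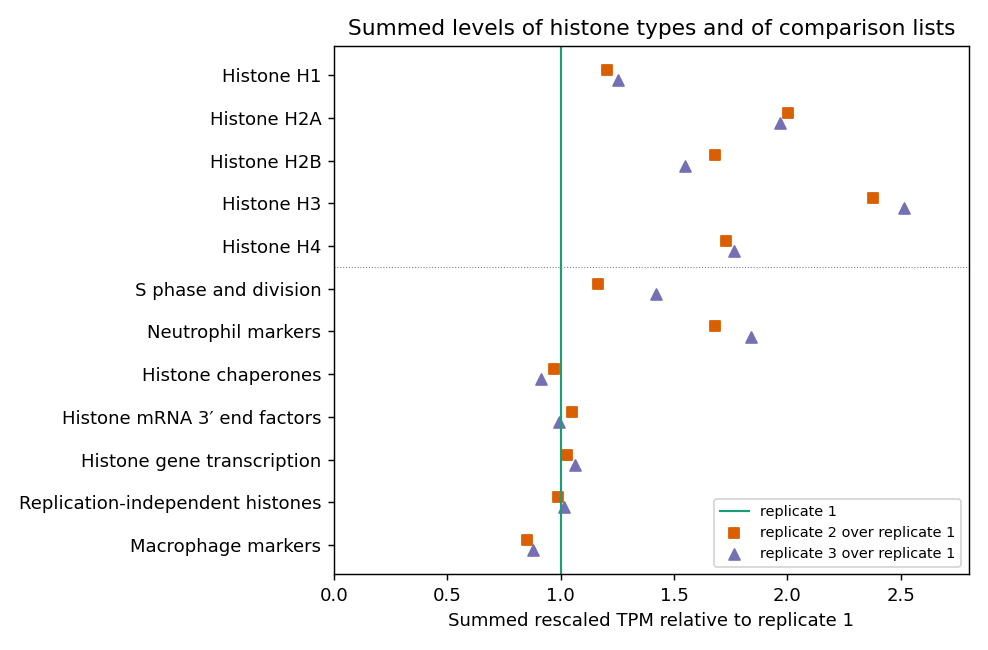
Summed rescaled TPM of each histone type (above the dotted line) and of 7 comparison lists (below it), as a ratio to replicate 1, for replicate 2 (squares) and replicate 3 (triangles). H3 reached 2.38 and 2.52, S phase and division genes 1.16 and 1.42, and replication-independent histones 0.990 and 1.01.

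Genes that act with the members were read from lists. The replication-independent histone genes summed to 530.56, 462.64 and 423.70 TPM, led by H3f3a (172 ± 37.4 TPM) and H3f3b (170 ± 20.1 TPM), which encode the replacement form of H3, and by H2afz (40.0 ± 4.28 TPM), which encodes a replacement form of H2A. Of 11 genes 9 were detected, and H1fx (0.07 TPM) and H2afy2 (0.79 TPM) were below 1 TPM on average. The members' summed TPM was 0.894, 1.61 and 1.56 times theirs. After rescaling, the replication-independent genes summed to 2125, 2103 and 2156, nearly the same in each library. Single genes were less even: in replicate 3, H3f3a was at 0.817 times replicate 1 and H3f3b at 1.22 times. H2afx had ratios of 1.37 and 1.34 in replicates 2 and 3. Over the 9 genes averaging at least 1 TPM the median ratios were 1.02 and 1.03, and replicate 1 was lowest for 5 and highest for 2. None of the 9 met the 1.5-fold criterion, where the background was 1.00%.

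Factors for histone mRNA ends were present, with median rescaled ratios to replicate 1 of 1.02 and 0.980 in replicates 2 and 3. Of 16 symbols 14 were matched and 12 were detected. None of the 12 averaging at least 1 TPM met the 1.5-fold criterion. The background was 1.00%, so this count does not set the list apart from other genes. Sympk, the scaffold of the cleavage complex, had 14.7 ± 1.94 TPM, Srrt, a partner of the cap-binding complex, 11.4 ± 0.479 TPM and Lsm10, of the U7 particle, 10.9 ± 2.18 TPM. Slbp had 7.84, 6.38 and 6.20 TPM. Lsm11, the other U7-specific protein, had 0.58 TPM and Zfp473, the mouse counterpart of a U7-linked zinc finger protein, 0.13 TPM on average. Of the 12 genes of histone gene transcription 9 were detected, led by Yy1 (7.42 TPM), E2f1 (4.33 TPM) and Cdk2 (4.04 TPM), with E2f2 (0.52 TPM), Ccne1 (0.54 TPM) and Ccne2 (0.46 TPM) below 1 TPM. Npat, the coactivator that gathers at histone clusters, had 2.48, 1.99 and 1.81 TPM. Of the 12 histone chaperones 10 were detected, led by Npm1 (74.0 TPM), Nap1l1 (28.4 TPM) and Atrx (15.9 TPM). The subunit Chaf1a of the replication-coupled assembly factor CAF-1 (0.49, 0.89 and 0.82 TPM) and Asf1b (0.78, 1.09 and 0.97 TPM) were the 2 below 1 TPM on average.

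S phase and division genes followed the members in direction but not in size. Of 21 genes 14 were detected. On rescaled TPM replicate 1 was the lowest library for 16 of the 16 averaging at least 1 TPM, with a background of 36.5%. On TPM it was the lowest for 12 of them, with a background of 4.05%. The highest were Pcna, the replication clamp (62.58, 58.74 and 67.27 TPM), and the helicase subunits Mcm6 (7.31, 7.76 and 8.06 TPM) and Mcm3 (5.32, 5.57 and 6.46 TPM). Cdc6, Gins1, Tyms and Ccnb1 were among the genes below 1 TPM on average. The list's median rescaled ratios to replicate 1 were 1.24 and 1.42 in replicates 2 and 3, and the members' were 2.10 and 2.11. The 1.5-fold criterion was met by 4 of the 16, with a background of 1.00%: Mcm5, Rrm2, Top2a and Ccna2, named after their values were seen. In bulk RNA, fewer dividing cells and less histone RNA per dividing cell cannot be told apart.

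Other values moved between the libraries as well. Of 4 neutrophil markers, Ly6g, the defining surface marker, was listed at 0, 0 and 0.02 TPM, and S100a8, S100a9 and Ngp, granule and cytosolic proteins of myeloid cells, were lowest in replicate 1. The neutrophil list summed to 18.07, 26.74 and 26.15 TPM, and 3 of its 3 genes averaging at least 1 TPM met the 1.5-fold criterion. The macrophage markers summed to 7049.66, 5294.90 and 4881.87 TPM, most of it from Lyz2. None of the 8 met the criterion, which 1.00% of protein-coding genes averaging at least 1 TPM met. On rescaled TPM the median macrophage marker was 0.971 and 1.02 times replicate 1 in replicates 2 and 3. Of 3 nuclear RNAs, Malat1 had 359.30, 247.98 and 763.12 TPM, Neat1 31.68, 23.64 and 83.91 TPM and Rn7sk, the 7SK RNA, between 58303.60 and 71569.50 TPM. All 3 were highest in replicate 3. On TPM the members' median ratios to replicate 1 were 1.85 in replicate 2 and 1.66 in replicate 3, and on rescaled TPM 2.10 and 2.11. The part of these cells or of nuclear RNA in the members' levels was not tested.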

How the data were processed

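The authors deposited, for each library, a gene and a transcript table with expected counts, TPM and FPKM, and a second transcript table with estimated counts and TPM, per the file headers. The build was mm10, per the labels; the annotation of the tables was matched here to GENCODE M21 by transcript ID, and the sources used here state no aligner, quantifier, strand use or read length. Rows naming no gene held 0.402%, 0.108% and 0.122% of expected counts and were left out. Expected counts were rounded for edgeR 4.0.16 (R 4.3.3; TMM, filterByExpr with a minimum count of 10), in whose coefficient of variation each gene's value is drawn toward the trend. Other values came from Python 3.11.15 with pandas 2.3.3. The members, the gene lists, the model-end classes and the 1.5-fold criterion were chosen with earlier results of these data known. Named members are the 10 highest by mean TPM, the extremes of each type and cluster, of spread and of disagreement between tables, and the testis types. In other lists the 3 highest genes and those averaging below 1 TPM were named, except 1 that is not reported here. Replicates 1, 2 and 3 are 1 group, and no p-value was computed. Alternatives covered scaling, table, limit, pseudocount, filter and each library left out. Symbols are those of the tables, and protein sequences were not used here.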

Additional observations from a re-analysis of the deposited data

How the results depend on the processing

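With 3 libraries of 1 condition, each value is a level, and no test was run whose call could be lost. Members that met the 1.5-fold criterion, or did not share the pattern, were counted on rescaled TPM only. The counts of members by lowest library were made on TPM and rescaled TPM only. No paired analysis was possible because the libraries form 1 group. Detected members numbered 52, and 24 at a limit of 5 TPM. The summed TPM of 627 became 2882 on rescaled TPM, 248 in the second table, 2931 in that table rescaled and 1261 FPKM, and the median member's 5.76 TPM became 26.8, 2.23, 26.7 and 11.7. The highest library's sum was 1.57 times the lowest's, against 1.78 rescaled, 1.48 in the second table, 1.74 in that table rescaled, 1.72 on FPKM, and 1.505 and 1.497 on CPM with TMM and with relative log expression factors. As shares of expected counts, H1 was 28.5%, H2A 22.4%, H2B 21.1% and H4 18.1%, since TPM divides by model length. Members held 0.0752% of counts when only nuclear-encoded protein-coding genes were counted. The median SD of log2 values was 0.62 on CPM with either set of factors, and ranged from 0.12 to 0.51 with a library left out. The median coefficient of variation ranged from 0.150 to 0.287 in the same way, lowest without replicate 1. The cause of that library's low members was not tested. Levels of members with shared sequence depend on how reads were assigned.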
